A study of Mus musculus with 12 samples.

Results

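Hepcidin and the iron handling genes of the liver were followed as 10 genes, taken by symbol from the 48795 rows of the deposited table, and all 10 were found. They are the hepcidin genes *Hamp* and *Hamp2*, the ligand *Bmp6*, the iron-sensing genes *Hfe* and *Tfr2*, the transferrin receptor *Tfrc*, transferrin (*Trf*), the ferritin subunits *Fth1* and *Ftl1*, and ferroportin (*Slc40a1*). RNA of whole livers from 12 female mice was sequenced, 3 in each of 4 groups. *Nts* encodes neurotensin, a gut hormone, and mice labelled Nts+/+ or Nts-/- had free access to food (fed) or none for 22 h (fasted) before the livers were taken. All were 4 months old, on normal chow, with livers labelled as of normal pathology, and the genotypes were matched littermates bred from heterozygous parents. The deletion in Nts-/- mice is of the whole body, so that a difference in liver need not arise there.

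Hepcidin is a small hormone made by hepatocytes that binds ferroportin, the only known cellular iron exporter, and causes its breakdown, so that less iron enters the blood. Its gene is switched on by BMP6 from sinusoidal endothelial cells acting through SMAD proteins, with HFE and transferrin receptor 2 as sensors of iron-loaded transferrin, and by interleukin 6 acting through STAT3. Inside the cell, iron regulatory proteins bind hairpins in messenger RNA when iron is scarce. A hairpin in the 5′ untranslated region then blocks translation of ferritin and ferroportin, and hairpins in the 3′ untranslated region protect the transferrin receptor messenger from decay.

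The 2 hepcidin genes lie side by side on chromosome 7 (GRCm38), *Hamp* at chr7:30942368-30944032 and *Hamp2* at chr7:30922389-30924681. Their upstream regions are shown because they are close copies that differ within 1 of the 2 elements searched for, both known to act on *Hamp*. Other elements were not searched for. These are the 250 bases before each RefSeq start of transcription (GRCm38.p6, minus strand, 5′ to 3′), at chr7:30944030-30944279 for *Hamp* and chr7:30924182-30924431 for *Hamp2*. Capitals mark matches to GGCGCC, the core of a BMP-responsive element, and to TTCNNNGAA, the core of a STAT element. Each motif reads the same on both strands, and they do not overlap.
Hamp: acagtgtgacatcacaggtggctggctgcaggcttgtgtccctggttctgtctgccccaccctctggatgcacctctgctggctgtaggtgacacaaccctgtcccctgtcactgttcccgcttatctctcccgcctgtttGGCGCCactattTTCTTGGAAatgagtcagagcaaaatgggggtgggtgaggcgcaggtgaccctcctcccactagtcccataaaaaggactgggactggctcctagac
Hamp2: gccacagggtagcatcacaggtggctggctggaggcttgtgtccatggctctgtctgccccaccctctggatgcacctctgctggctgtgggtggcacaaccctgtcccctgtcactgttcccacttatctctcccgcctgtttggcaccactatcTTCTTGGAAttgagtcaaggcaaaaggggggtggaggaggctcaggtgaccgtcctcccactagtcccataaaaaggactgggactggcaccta

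Aligned over 247 bases, the upstream regions were identical at 227, or 91.9%. Counted from 1 at the 5′ end of the *Hamp* window, GGCGCC stood at bases 142 to 147 of *Hamp*. In the *Hamp2* window the letters GGCGCC did not occur, and the difference within the element was G145A (the *Hamp* base first). TTCTTGGAA stood in both, at bases 154 to 162 of *Hamp* and 157 to 165 of *Hamp2*. Of all 32851 RefSeq windows of this length, 9.59% held GGCGCC, 7.02% held TTCNNNGAA and 0.368% held both. The *Hamp2* gene of the deposited table begins upstream of the RefSeq start, so its window lies within the deposited span.

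Iron-responsive hairpins are shown because they group the members by how iron acts on their messengers. The canonical transcripts of GENCODE vM39 were searched on the transcript strand for a bulged C, 5 paired bases and a 6-base loop that begins with CAGTG. Such a hairpin was found in 4 of the 10 members, in 0 of 56 other genes of iron regulation, and in 0.986% of 21593 coding transcripts. Other transcripts of these genes, and hairpins with an unpaired base within the stem, were not searched for. The counts are of this form only. *Tfrc* held 4 of them, all in the 3′ untranslated region, and *Fth1*, *Ftl1* and *Slc40a1* held 1 each in the 5′ untranslated region. In the 29 bases of each, given 5′ to 3′ with its first base in the transcript, capitals mark the bulged C and the loop.
Tfrc, base 3320: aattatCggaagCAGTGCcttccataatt
Tfrc, base 3699: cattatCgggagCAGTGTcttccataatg
Tfrc, base 3764: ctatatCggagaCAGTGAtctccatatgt
Tfrc, base 3811: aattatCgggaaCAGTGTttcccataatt
Fth1, base 87: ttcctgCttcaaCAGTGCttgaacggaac
Ftl1, base 78: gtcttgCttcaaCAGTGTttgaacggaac
Slc40a1, base 166: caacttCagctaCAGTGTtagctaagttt

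Totals were between 21999647 and 45273069 counts per mouse, and the edgeR biological coefficient of variation was 0.202. *Nts* was counted at 0 in all 6 livers labelled Nts+/+, where 3 counts correspond to between 0.0833 and 0.136 CPM (counts scaled to a library total of 1000000), and at between 4 and 46 counts in the 6 labelled Nts-/-. The counts of the targeted gene thus go against the genotype labels, and the reason was not tested. Each direction between genotypes is given for the libraries as labelled. Hepatocyte markers were abundant in every group, with all 10 present and summed levels between 124162 and 158456 CPM. Fasting changed many genes (adjusted *p* under 0.05, edgeR quasi-likelihood test): 18.1% of the 13812 genes tested in Nts+/+ livers, 16.8% in Nts-/- livers and 32.8% over both genotypes.

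The members spanned a wide range of levels, which were compared between genes only as CPM per kilobase of canonical transcript, averaged over the 12 mice. *Trf* stood first at 5574, followed by *Ftl1* at 3241, *Fth1* at 1530, *Hamp* at 1285 and *Hamp2* at 396. Then came *Tfr2* at 107, *Slc40a1* at 45.4, *Hfe* at 14.3, *Tfrc* at 6.25 and *Bmp6* at 0.963. Neighbours in this order kept it in all 12 mice, except that *Fth1* was above *Hamp* in 7 of 12 and *Hamp2* was above *Tfr2* in 11 of 12. *Fth1* and *Hamp* were therefore not separated. Between mice the levels of *Tfr2* varied least, with the highest mouse 1.3 times the lowest. Those of *Hamp2* varied most, by 52.1 times. All 10 members passed the filter on low counts in the fit.

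**Figure D1:**
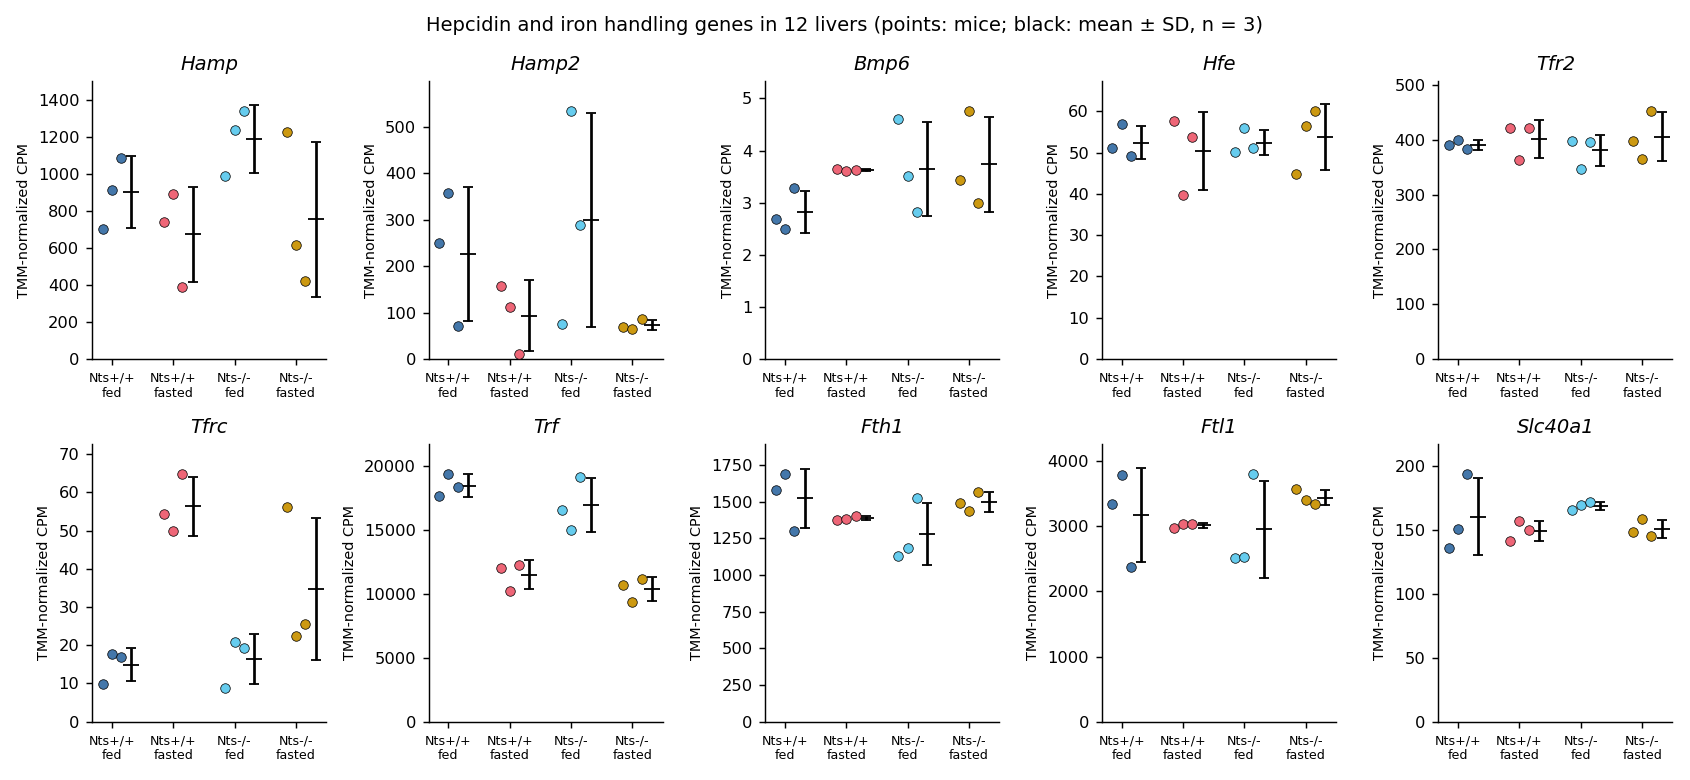
TMM-normalized CPM (vertical axes, each from 0) of the 10 genes in each of the 12 mice by group, with points for mice and black marks for mean ± SD (n = 3). The 6 fasted livers sit above the 6 fed livers for *Tfrc* and below them for *Trf*, and the other 8 genes overlap between all fed and all fasted livers.

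Fasting raised *Tfrc* and lowered *Trf*, and no other member passed edgeR's test in any comparison. Over both genotypes 1 of 10 members was higher and 1 lower, against 16% and 16.8% of all genes tested. In Nts+/+ livers it was also 1 higher and 1 lower (all genes, 8.91% and 9.19%), and in Nts-/- livers 0 higher and 1 lower (all genes, 7.7% and 9.14%). Together the share of members called was 2 of 10 in Nts+/+ livers and over both genotypes and 1 of 10 in Nts-/- livers, so that the family as a whole did not stand above the background of the fasted liver. The median log2 fold change of the members was 0.019 over both genotypes, and that of all genes tested was -0.0071. By the ranges alone, 2 of 10 members did not overlap between the 6 fed and 6 fasted livers (all genes, 15.9%), and 3 of 10 did not overlap between fed and fasted in Nts+/+ livers (all genes, 36%) and in Nts-/- livers (all genes, 35.2%). In these bulk samples fewer cells of a type and less RNA per cell cannot be told apart.

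*Tfrc* (ENSMUSG00000022797, chr16:32608920-32632794) encodes the receptor that takes iron-loaded transferrin into the cell. In Nts+/+ livers it was at 9.97, 17.8 and 16.9 TMM-normalized CPM in the fed mice 254, 257 and 323, and at 54.3, 50 and 64.9 in the fasted mice 265, 282 and 322. In Nts-/- livers it was at 8.92, 20.9 and 19.2 in the fed mice 277, 303 and 319, and at 56.2, 22.5 and 25.5 in the fasted mice 284, 290 and 295. All 6 fasted livers were above all 6 fed livers. Within the fasted Nts-/- group, mouse 284 reached the level of the fasted Nts+/+ mice, and the other 2 lay just above the highest fed mouse.

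The level of *Tfrc* rose 2.84-fold over both genotypes (log2 fold change 1.51, standard error 0.292, edgeR adjusted *p* = 0.00326). In Nts+/+ livers it rose 3.79-fold (log2 fold change 1.92, standard error 0.417, edgeR adjusted *p* = 0.0119). For Nts-/- livers the ratio was 2.13 (log2 fold change 1.09, standard error 0.409), which did not pass (edgeR adjusted *p* = 0.0978) but did in DESeq2 (adjusted *p* = 0.0122). Without mouse 284 the log2 fold change there was 0.56 (edgeR adjusted *p* = 0.326). Tested directly, the response in Nts-/- livers differed from that in Nts+/+ livers by -0.83 on the log2 scale (95% interval -2.11 to 0.45, edgeR adjusted *p* = 0.901), which did not pass.

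Young red cells carry much transferrin receptor, so erythroid markers were read beside this gene. Of 10 listed, 6 were tested, and over both genotypes 0 were higher and 1 was lower (all genes, 16% and 16.8%). Their summed level was between 268 and 456 CPM in fed and between 349 and 494 in fasted Nts+/+ livers. It was between 323 and 630 in fed and between 236 and 604 in fasted Nts-/- livers, so that the feeding groups overlapped in both genotypes.

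*Trf* (ENSMUSG00000032554, chr9:103204001-103230444) encodes transferrin, the iron carrier of the blood, which hepatocytes secrete. It was at 17635, 19419 and 18388 TMM-normalized CPM in the fed Nts+/+ mice 254, 257 and 323, and at 12047, 10208 and 12257 in the fasted mice 265, 282 and 322. In Nts-/- livers it was at 16594, 15027 and 19183 in the fed mice 277, 303 and 319, and at 10693, 9346 and 11186 in the fasted mice 284, 290 and 295. The lowest fed mouse was above the highest fasted mouse.

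Fasting lowered *Trf* to 0.62 times the fed level over both genotypes (log2 fold change -0.69, standard error 0.108, edgeR adjusted *p* = 0.000312). The change was -0.68 in Nts+/+ livers (standard error 0.152, edgeR adjusted *p* = 0.00801) and -0.70 in Nts-/- livers (standard error 0.152, edgeR adjusted *p* = 0.00712). The responses of the genotypes differed by -0.018 (95% interval -0.48 to 0.44). Without the fasted mouse 282, the change in Nts+/+ livers was -0.61 (edgeR adjusted *p* = 0.0538).

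*Hamp* (ENSMUSG00000050440), the gene of the active hormone, was at 702, 914 and 1087 TMM-normalized CPM in the fed Nts+/+ mice 254, 257 and 323, and at 740, 889 and 390 in the fasted mice 265, 282 and 322. In Nts-/- livers it was at 986, 1236 and 1340 in the fed mice 277, 303 and 319, and at 1223, 617 and 423 in the fasted mice 284, 290 and 295. The lowest values were in fasted mice of either genotype, but fed and fasted mice overlapped in both. The log2 fold change was -0.42 in Nts+/+ livers (95% interval -1.26 to 0.42), -0.65 in Nts-/- livers (-1.50 to 0.19) and -0.54 over both (-1.13 to 0.056; edgeR adjusted *p* = 0.154). No call was made, and the values moved either way with single mice. Without the fasted mouse 284 the change was -1.19 in Nts-/- livers (edgeR adjusted *p* = 0.0371) and -0.80 over both genotypes (edgeR adjusted *p* = 0.0156). Without the fasted mouse 295 it was nearer 0, at -0.37 in Nts-/- livers and -0.39 over both (edgeR adjusted *p* = 0.56 and 0.256). In Nts+/+ livers it was between -0.68 without the fasted mouse 282 and -0.14 without the fasted mouse 322, and neither passed (edgeR adjusted *p* = 0.36 and 0.836).

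*Hamp2* (ENSMUSG00000056978), the second hepcidin gene, which is not known to control iron in the blood, varied more. It was at 250, 358 and 71.6 TMM-normalized CPM in the fed Nts+/+ mice 254, 257 and 323, and at 158, 112 and 10.3 in the fasted mice 265, 282 and 322. In Nts-/- livers it was at 75.2, 535 and 288 in the fed mice 277, 303 and 319, and at 69.2, 64.3 and 85.8 in the fasted mice 284, 290 and 295. A fed mouse reached down into the fasted range in each genotype. The log2 fold change was -1.28 in Nts+/+ livers (95% interval -3.56 to 1.00), -2.03 in Nts-/- livers (-4.36 to 0.30) and -1.66 over both (-3.28 to -0.028). Over both genotypes the edgeR adjusted *p* was 0.112, and DESeq2 gave 0.0419. These values also moved with single mice, and none passed in edgeR when a mouse was left out. In Nts+/+ livers the log2 fold change was between -1.87 without the fasted mouse 265 and -0.74 without the fasted mouse 322. For Nts-/- livers it was between -2.49 without the fed mouse 277 and -1.31 without the fed mouse 303.

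The hepcidin messengers are close copies, with 401 of 430 aligned bases identical (93.3%) between the canonical transcripts of GENCODE vM39. The deposited counts are estimates that can divide a read among genes, and those of both genes were not whole in 12 of 12 mice, as was so for *Trf* and *Ftl1*. How many reads were divided between *Hamp* and *Hamp2* was not measured, and the division is uncertain. Counts summed over both genes do not depend on it. Their log2 fold change was -0.56 in Nts+/+ livers, -0.85 in Nts-/- livers and -0.70 over both genotypes (edgeR adjusted *p* = 0.351, 0.161 and 0.0719).

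The share of *Hamp2* in the counts of both genes was 26.2%, 28.2% and 6.17% in the fed Nts+/+ mice 254, 257 and 323, and 17.6%, 11.2% and 2.56% in the fasted mice 265, 282 and 322. It was 7.09%, 30.2% and 17.7% in the fed Nts-/- mice 277, 303 and 319, and 5.36%, 9.45% and 16.9% in the fasted mice 284, 290 and 295. The lowest share of each group was between 2.56% and 7.09%, and fed and fasted mice overlapped. For Nts+/+ livers the means were 20.2% ± 12.2 when fed and 10.5% ± 7.54 when fasted, and for Nts-/- livers 18.3% ± 11.6 and 10.6% ± 5.83 (SD, n = 3 each). Over both genotypes the share was 8.75 points lower in fasted mice by the means, which did not pass (two-sided exact permutation test within genotype, *p* = 0.125, adjusted over 6 comparisons 0.75, smallest possible *p* 0.005).

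**Figure D2:**
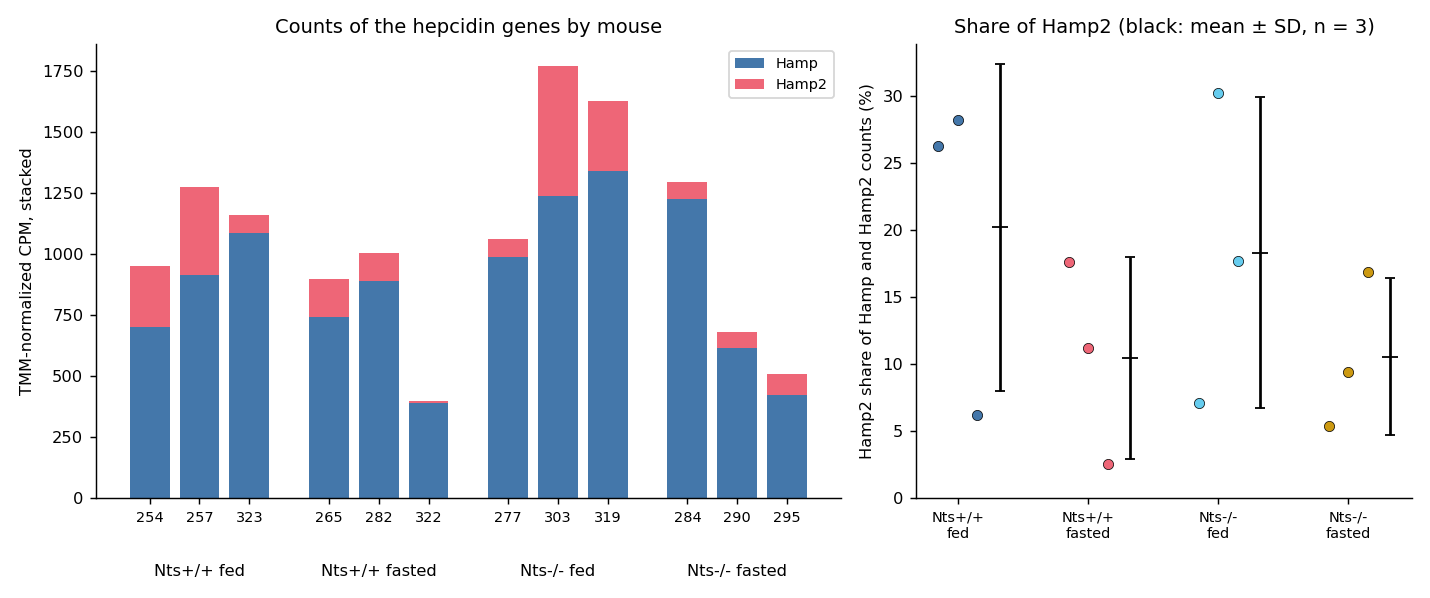
Left, TMM-normalized CPM of *Hamp* and *Hamp2* stacked for each of the 12 mice (numbers), by group. Right, share of *Hamp2* in the counts of both genes, in percent, with points for mice and mean ± SD (n = 3) in black; the shares run from 2.56% to 30.2% and the groups overlap.

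The members that act upstream of hepcidin (*Hfe*, *Tfr2* and *Bmp6*) passed no test. *Hfe* (ENSMUSG00000006611, chr13:23702034-23710854) and *Tfr2* (ENSMUSG00000029716, chr5:137569840-137587481), the sensors, lay between 39.7 and 60.1 and between 347 and 453 TMM-normalized CPM in the 12 mice. Their log2 fold changes over both genotypes were -0.0089 (95% interval -0.24 to 0.22) and 0.066 (-0.13 to 0.26).

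*Bmp6* (ENSMUSG00000039004, chr13:38345716-38499728), the ligand, was the least abundant member, with between 68 and 174 counts per mouse. It was at 2.70, 2.50 and 3.28 TMM-normalized CPM in the fed Nts+/+ mice 254, 257 and 323 and at 3.65, 3.60 and 3.63 in the fasted mice 265, 282 and 322. The groups did not overlap there, yet the log2 fold change of 0.36 did not pass (95% interval -0.13 to 0.86, edgeR adjusted *p* = 0.296). In Nts-/- livers the groups overlapped, with a log2 fold change of 0.020. Over both genotypes it was 0.19 and did not pass (95% interval -0.15 to 0.54, edgeR adjusted *p* = 0.39). Of 10 markers of sinusoidal endothelium, the source of BMP6, 7 were lower and 1 was higher over both genotypes (all genes, 16.8% and 16%). Their summed level was between 282 and 407 CPM in fed and between 248 and 256 in fasted Nts+/+ livers, and between 320 and 360 and between 230 and 269 in Nts-/- livers. Their part in the level of *Bmp6* was not tested.

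The ferritin genes passed no test of fasting. *Fth1* (ENSMUSG00000024661, chr19:9982703-9985092), the heavy subunit that oxidizes iron, had a log2 fold change of 0.046 over both genotypes (95% interval -0.18 to 0.27). For *Ftl1* (ENSMUSG00000050708, chr7:45457944-45459884), the light subunit, it was 0.074 (-0.22 to 0.37). The SD between mice was larger in fed than in fasted groups for both genes. In Nts+/+ livers *Fth1* was at 1523 ± 202 TMM-normalized CPM when fed and 1387 ± 14.8 when fasted, and in Nts-/- livers at 1279 ± 213 and 1497 ± 67.5 (SD, n = 3 each). *Ftl1* was at 3167 ± 718 and 3012 ± 37.1 in the former, and at 2949 ± 743 and 3436 ± 119 in the latter (SD, n = 3 each).

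The ratio of the ferritin subunits varied little between mice. Of the counts of both, *Ftl1* made up 67.2% ± 2.29 in fed and 68.5% ± 0.242 in fasted Nts+/+ livers, and 69.5% ± 1.74 and 69.6% ± 1.37 in Nts-/- livers (SD, n = 3 each). The share was 0.692 points higher in fasted mice (two-sided exact permutation test, *p* = 0.475) and 1.73 points higher in livers labelled Nts-/- (*p* = 0.09 in the same exact test, adjusted over 6 comparisons 0.54). Reads assigned to the most abundant ferritin pseudogene row, *Ftl1-ps1*, amounted to 0.55% of those of *Ftl1*.

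*Slc40a1* (ENSMUSG00000025993, chr1:45908068-45926523), the exporter on which hepcidin acts, was at 165, 170 and 172 TMM-normalized CPM in the fed Nts-/- mice 277, 303 and 319 and at 148, 158 and 145 in the fasted mice 284, 290 and 295. These groups did not overlap. The log2 fold change was small, however, at -0.17 (95% interval -0.45 to 0.12, edgeR adjusted *p* = 0.424), and the fed and fasted Nts+/+ mice overlapped, between 136 and 194 CPM in the fed and between 141 and 157 in the fasted. Kupffer cells, the resident macrophages, also express ferroportin. Of their 10 markers 4 fell in Nts+/+ livers (summed level 656 to 695 CPM in fed, 325 to 558 in fasted) and 0 passed in Nts-/- livers (422 to 536 and 417 to 589). Of all genes, 9.19% and 9.14% were lower. Over both genotypes 4 of 10 fell (all genes, 16.8%). For the difference of the fasting response between genotypes 0 of 10 passed (all genes, 0%). At an unadjusted *p* under 0.05 in edgeR there were 5 of 10, beside 663 of all 13812 genes tested. The part of Kupffer cells in the level of *Slc40a1* was not tested.

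**Figure D3:**
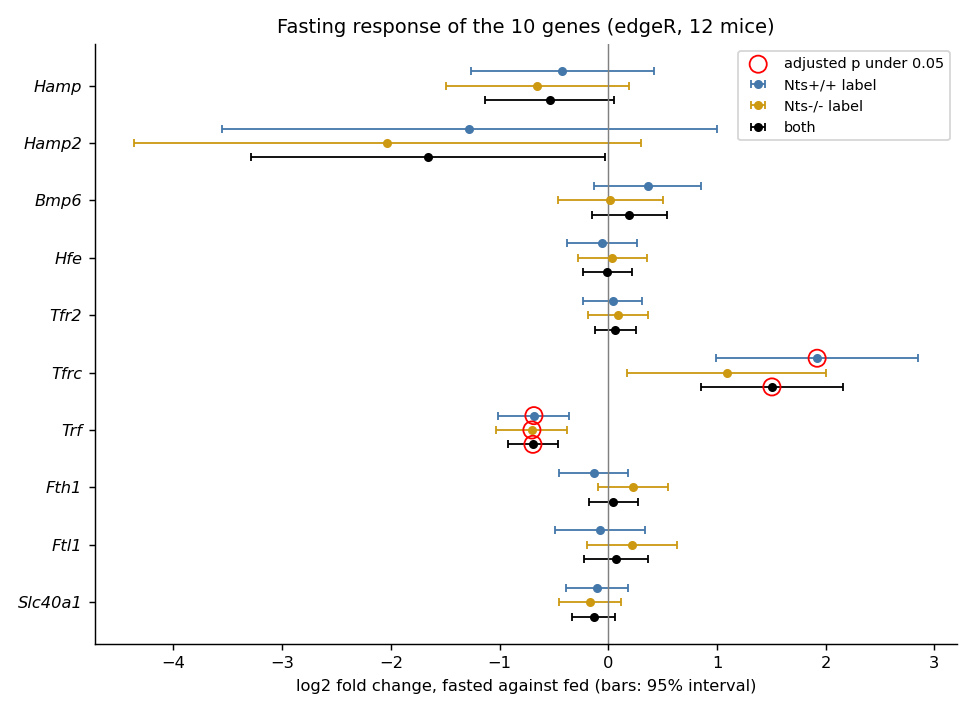
Log2 fold change of each of the 10 genes, fasted against fed (horizontal axis, 95% intervals), in livers labelled Nts+/+ (blue), in those labelled Nts-/- (ochre) and over both (black). Red circles mark an edgeR adjusted *p* under 0.05, reached only by *Tfrc* in Nts+/+ livers and over both, and by *Trf* in all 3 comparisons.

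Between the genotype labels no member passed. The number called was 0 of 10 in fed livers, in fasted livers, over both feeding states and for the difference of the fasting response, and in each of these 4 comparisons edgeR called 0% of all 13812 genes. At an unadjusted *p* under 0.05, edgeR had 0 of the 10 members in each, and of all genes 876, 685, 859 and 663. DESeq2 called 8, 4, 16 and 3 genes, and 0 of the members. Over both feeding states the members' log2 fold changes, libraries labelled Nts-/- against Nts+/+, ran from -0.29 for *Tfrc* (95% interval -0.93 to 0.35) to 0.28 for *Hamp* (-0.31 to 0.87). Without the fasted mouse 284 they were -0.55 and 0.0085.

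In fasted livers both ferritin genes were higher in each of the 3 mice labelled Nts-/- than in each labelled Nts+/+. These were the 2 of 10 members that did not overlap, beside 12.2% of all genes tested, and in fed livers 0 of 10 did not overlap, beside 10.7%. *Fth1* was at 1489, 1434 and 1568 TMM-normalized CPM in mice 284, 290 and 295, and at 1377, 1381 and 1404 in mice 265, 282 and 322. *Ftl1* was at 3571, 3394 and 3344 in the former and at 2970, 3038 and 3029 in the latter. The differences were small, 0.11 for *Fth1* (95% interval -0.21 to 0.43) and 0.19 for *Ftl1* (-0.22 to 0.60) on the log2 scale, and neither passed (edgeR adjusted *p* = 0.951 and 0.929). In fed livers the difference of *Fth1* had the other sign, at -0.25 (-0.57 to 0.068), and the groups overlapped.

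The other genes of iron regulation were followed in 7 lists of 56 genes, of which 52 were tested. Over both genotypes fasting raised 11 and lowered 13 of them, or 46.2%, beside 32.8% of all genes. *Erfe*, *Cybrd1* and *Ftmt* were too low to test, and *Flvcr1* was not analysed here. The changes named for these genes are log2 fold changes over both genotypes, fasted against fed. Genotype changed 0 of the 52 in any comparison (all genes, 0%). At an unadjusted *p* under 0.05 in edgeR there were between 1 and 5, beside between 663 and 876 of all 13812 genes.

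In the pathway from BMP to SMAD, 1 of 11 tested genes rose and 2 fell with fasting over both genotypes (all genes, 16% and 16.8%). The largest change was in *Tmprss6*, the protease that cleaves hemojuvelin and so restrains hepcidin, at -0.55 on the log2 scale (standard error 0.102, edgeR adjusted *p* = 0.00106). *Smad1*, which carries the signal, fell by 0.36 on that scale (edgeR adjusted *p* = 0.00985), and its partner *Smad4* rose by 0.29 (edgeR adjusted *p* = 0.0334). The second endothelial ligand *Bmp2* had a log2 fold change of -0.022, and the hemojuvelin gene *Hjv* of -0.080.

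Of 7 known targets of the same signal, 2 fell and 0 rose, beside 16.8% and 16% of all genes. The median log2 fold change was -0.33, and that of all genes tested was -0.0071. *Id3*, an inhibitor of differentiation factors, fell by 1.01 on the log2 scale (standard error 0.321, edgeR adjusted *p* = 0.0363). *Smad7*, the feedback inhibitor, fell by 0.48 (standard error 0.169, edgeR adjusted *p* = 0.0431). Within Nts+/+ livers and within Nts-/- livers 0 of the 7 targets passed (all genes, 18.1% and 16.8%). *Smad7* averaged 7.99 TMM-normalized CPM in fed and 6.76 in fasted Nts+/+ livers, and 12.9 and 7.82 in Nts-/- livers. For *Id3* the means were 59.3 and 36.1 in the former, and 78.3 and 31.8 in the latter (n = 3 each). *Id1* had a log2 fold change of -0.32 and did not pass (edgeR adjusted *p* = 0.405). Endothelial and stellate cells also express these genes, and markers of both were lower in fasted livers. Over both genotypes 7 of 10 endothelial and 6 of 8 stellate markers fell, beside 16.8% of all genes. Their part in these values was not tested.

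In the interleukin 6 and STAT3 list, 2 of 7 genes rose and 2 fell over both genotypes (all genes, 16% and 16.8%). The receptor *Il6ra* rose by 0.81 on the log2 scale (standard error 0.141, edgeR adjusted *p* = 0.000784). *Creb3l3*, a liver factor that acts on the hepcidin promoter, rose by 0.72 (edgeR adjusted *p* = 0.00189). The shared receptor chain *Il6st* fell by 0.40 and the kinase *Jak2* fell by 0.43 (edgeR adjusted *p* = 0.0157 and 0.0188). *Stat3* itself had a log2 fold change of 0.022. Of 10 acute phase genes, whose control overlaps with that of hepcidin, 5 fell and 1 rose over both genotypes (all genes, 16.8% and 16%). Within Nts+/+ livers 4 fell and 1 rose (all genes, 9.19% and 8.91%). Within Nts-/- livers 0 fell and 1 rose (all genes, 9.14% and 7.7%). The difference of these responses was called for 0 of 10 (all genes, 0%).

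Iron uptake, transport and export had 10 tested genes, of which 1 rose and 4 fell (all genes, 16% and 16.8%). *Steap4*, a metalloreductase, fell by 1.20 on the log2 scale (standard error 0.132, edgeR adjusted *p* = 2.11e-05). The heme and folate carrier *Slc46a1* fell by 0.69 (edgeR adjusted *p* = 0.000256) and the metal importer *Slc39a8* fell by 0.43 (edgeR adjusted *p* = 0.000913). The lysosomal heme carrier *Slc48a1* rose by 0.48 (edgeR adjusted *p* = 0.000522). Ceruloplasmin (*Cp*), the oxidase that works with ferroportin, and *Slc39a14*, the importer of free iron, had log2 fold changes of 0.013 and 0.012.

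Among storage genes and chaperones, 3 of 4 tested rose over both genotypes (all genes, 16%). In Nts+/+ livers 3 of 4 rose (all genes, 8.91%), and in Nts-/- livers 2 of 4 (all genes, 7.7%). The difference of the fasting response between genotypes was called for 0 of 4 (all genes, 0%). *Lcn2*, lipocalin 2, which binds the iron carriers of bacteria, rose 5.93-fold (log2 fold change 2.57, standard error 0.431, edgeR adjusted *p* = 0.00191). The iron chaperone *Pcbp2* rose by 0.51 on the log2 scale (edgeR adjusted *p* = 0.00137) and *Ncoa4*, which delivers ferritin to lysosomes, rose by 0.31 (edgeR adjusted *p* = 0.025). *Ncoa4* averaged 143 TMM-normalized CPM in fed and 213 in fasted Nts+/+ livers (n = 3 each). In Nts-/- livers its means lay close together, at 179 when fed and 185 when fasted (n = 3 each). Of the 3 genes of the iron regulatory proteins, *Aco1*, the first of these proteins, fell by 0.49 on the log2 scale (standard error 0.088, edgeR adjusted *p* = 0.000911). *Fbxl5*, which marks the second for breakdown when iron is plentiful, fell by 0.24 (edgeR adjusted *p* = 0.0451). *Ireb2*, the second protein, had a log2 fold change of 0.11.

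Mitochondrial iron genes had 4 of 10 higher and 1 lower (all genes, 16% and 16.8%). *Glrx5*, needed for iron-sulfur clusters, rose by 0.88 on the log2 scale (standard error 0.091, edgeR adjusted *p* = 1.22e-05) and *Isca1*, of the same pathway, rose by 0.40 (edgeR adjusted *p* = 0.00294). The iron importers of mitochondria went apart: *Slc25a37* fell by 0.51 (edgeR adjusted *p* = 0.00567) and *Slc25a28* rose by 0.51 (edgeR adjusted *p* = 0.0109).

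**Figure D4:**
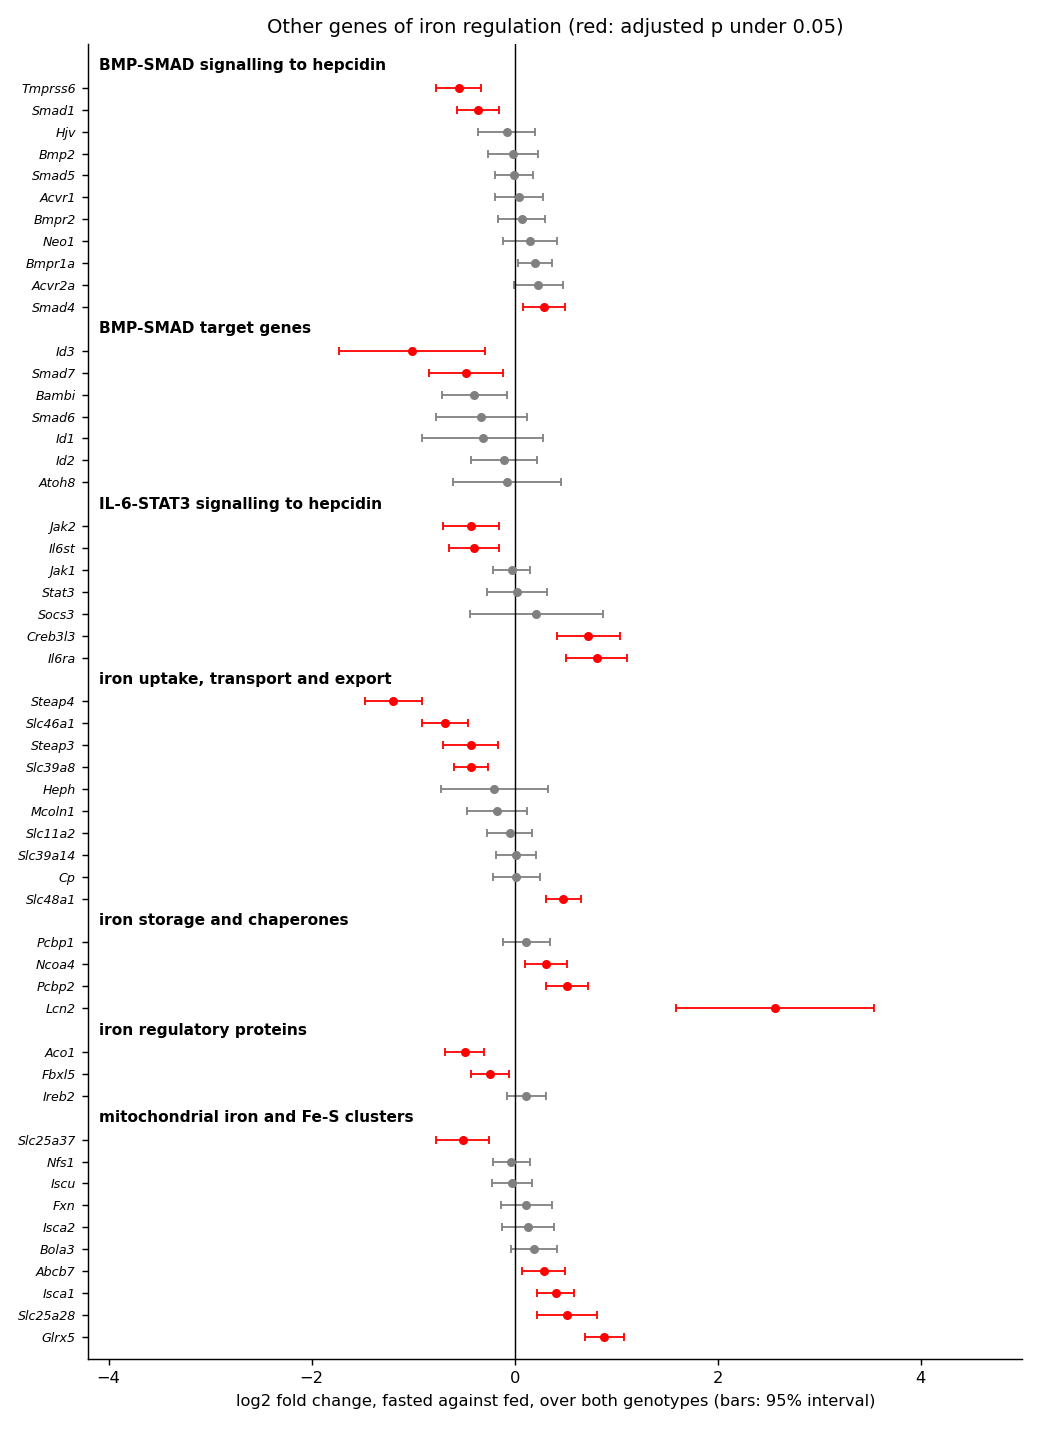
Log2 fold change (horizontal axis, 95% intervals), fasted against fed over both genotypes, of the tested genes in the 7 lists, with those past an edgeR adjusted *p* of 0.05 in red. The values run from -1.20 for *Steap4* to 2.57 for *Lcn2*, and red points stand on both sides of 0.

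Among the genes most like *Hamp* over the 12 mice, by Pearson's *r* of log2 CPM, were *Gm10767* (0.86), *Cldn1* (0.86), *Mreg* (0.85) and *Fam84a* (0.85). Within the 6 fed mice these were 0.81, 0.68, 0.62 and 0.86, and within the 6 fasted mice 0.89, 0.87, 0.88 and 0.79. With *Hamp2* the *r* of *Hamp* was 0.60 over all mice, 0.11 within the fed and 0.55 within the fasted mice. For *Trf*, the member with the smallest *p*, they were *Fn3k* (0.98), *Nat8f1* (0.97), *Serpina1c* (0.97), *Ctsc* (0.97) and *Zfp626* (0.97), all with lower means in the fasted groups, as for *Trf*. Within the fed mice these were 0.89, 0.83, 0.73, 0.63 and 0.29, and within the fasted mice 0.87, 0.72, 0.80, 0.82 and 0.97, so that the values over all mice include the difference between the feeding states. These values are picked from all tested genes and share the libraries and their scaling, so they are a description only.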

How the data were processed

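Liver RNA of 12 mice was analysed, 3 in each group. The authors deposited expected counts (reads assigned to each gene by estimate, so that fractions occur) in 1 table with Ensembl identifiers, symbols and GRCm38 positions. The submitters' processing notes name Trimmomatic and RSEM, and versions and the counting settings are not given in the sources used here. Columns of other samples number 0, and 1220 of 48795 rows have no symbol.

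Counts were rounded to whole numbers. In R 4.3.3, edgeR 4.0.16 filtered genes by filterByExpr (13812 kept), normalized by TMM and fitted 1 mean per group over all 12 mice with robust quasi-likelihood tests. Calls are Benjamini-Hochberg adjusted *p* under 0.05 over all genes tested, and standard errors and 95% intervals come from the same test. The edgeR *p* values set differences between groups against the spread between mice. TMM-normalized CPM are counts scaled to a total of 1000000 and by the TMM factor, and log2 CPM for correlations had a prior count of 2. The 3-count floor covers counting error only. Shares were compared with exact permutation tests, whose smallest *p* for 3 against 3 mice is 0.1. All samples carry 1 batch label.

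The members, lists and tests were chosen with earlier results of these data known. Named are all members and, of each list, up to 4 genes past the threshold in any comparison by smallest *p*. Other list genes with values (*Bmp2*, *Hjv*, *Id1*, *Stat3*, *Cp*, *Slc39a14*, *Ireb2*) were added after their values were seen, for their place in the pathway. Marker lists are given as counts and sums, and likeness as the 5 genes of highest *r*, of which 1 is not reported here. Upstream sequences are from RefSeq (GRCm38.p6, 2 of 2 hepcidin genes matched). Transcript lengths and hairpins are from GENCODE vM39, which is of another build, so none of its coordinates were used.

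Alternatives were DESeq2 1.42.0, RLE and upper-quartile factors, no filter on low counts, a minimum of 10 counts in each mouse, a fit of only those mice that were compared, adjusted *p* under 0.10, summed hepcidin counts, unrounded counts, ferritin pseudogene rows added to their parent (the last 2 for the shares only), and leaving out each mouse. In data simulated with these depths, fasting over both genotypes recovered 98 of 99 genes changed 4-fold and 73 of 98 changed 2-fold, with 14 calls among 13420 unchanged genes. Within Nts+/+ livers it was 91 and 55, and within Nts-/- livers 89 and 59. The simulation changed a far smaller share of genes than the 32.8% called over both genotypes in the livers. These numbers therefore need not hold for the tests of the livers.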

Additional observations from a re-analysis of the deposited data

How the results depend on the processing

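*Trf* lost and *Tfrc* kept its call in Nts+/+ livers without the fasted mouse 282, which left 1 member called, and the number was between 1 and 2 when any 1 of the 6 mice was omitted. In Nts-/- livers, 2 members were called in place of 1 with DESeq2, at an adjusted *p* under 0.10 (both adding *Tfrc*) or without the fasted mouse 284 (adding *Hamp*), with between 1 and 2 when a mouse was left out. Over both genotypes the number was 3 with DESeq2 (adding *Hamp2*) and without mouse 284 (adding *Hamp*), and 2 otherwise. The cause was not tested. Between genotypes it was 0 under each alternative for the number of members called (unrounded counts and added pseudogene rows were run for the shares only, and a fit of only the mice compared is the same fit where all 12 are compared). *Trf* over both genotypes had between -0.73 and -0.64 and *Tfrc* between 1.25 and 1.62 on the log2 scale when a mouse was left out, and both were called in each of the 12 fits.

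Signs turned only for values that had not passed. With upper-quartile factors *Bmp6* in Nts-/- livers had -0.0075. *Hfe* over both genotypes had 0.00096 with DESeq2, 0.00088 with RLE and 0.0018 with no filter. Leaving out a mouse, *Hfe* had between -0.15 and 0.087 in Nts+/+ livers, between -0.046 and 0.16 in Nts-/- livers and between -0.056 and 0.068 over both. *Ftl1* had between -0.24 and 0.077 in Nts+/+ livers and between -0.0077 and 0.19 over both, *Fth1* between -0.0022 and 0.12 over both, *Slc40a1* between -0.21 and 0.061 in Nts+/+ livers, and *Bmp6* between -0.19 and 0.23 in Nts-/- livers. The genotype difference of *Hamp2* in fed livers had between -0.32 and 0.90, and the difference of the *Trf* responses between -0.089 and 0.080.

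The *Hamp2* share over both genotypes differed by between -12.2 and -5.78 points in fasted against fed mice when 1 mouse was left out, with an unadjusted exact permutation *p* of 0.045 without the fed mouse 323. Its genotype difference was between -8.88 and 3.74 points in fed livers, -3.85 and 3.66 in fasted livers and -4.39 and 1.92 over both. The *Ftl1* share changed with fasting by between -0.032 and 2.18 points in Nts+/+ livers and between -0.60 and 1.10 in Nts-/- livers. Its genotype difference over both feeding states was between 1.10 and 2.21 points, and 2.13 with an unadjusted exact permutation *p* of 0.02 without the fasted mouse 295. Depth limited *Bmp6* most, at 68 counts in the lowest mouse. No paired analysis was possible because each mouse number occurs once and the labels do not say which mice were littermates.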
